A study of Mus musculus with 23 samples.

Results

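The DDX55 binding profile of mouse CD4+ naive T cells consisted of 243 intervals, and all 243 are described here, out of 29404 peaks in 4 merged lists (243 DDX55, 16738 H3K9me3, 10924 RNA polymerase II and 1499 R-loop). The profile came from CUT&Tag, in which an antibody brings a transposase to its target so that the DNA nearby is cut, tagged and sequenced. The 4 DDX55 samples were 2 from wild-type (WT) mice and 2 from DDX55 KO mice, all of naive CD4+ cells from spleen and pLN with no treatment. The H3K9me3 and RNA polymerase II (PolII) samples had the same genotypes and numbers, and the R-loop list was named by 8 samples, 4 per genotype, of which 4 had received RNase H. The other 3 samples, 2 for an HA tag and 1 for IgG, all WT, name no list and were not analysed here.

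The list gave a start and an end for each interval and no height, score or value per sample, so the depth was unknown. WT and DDX55 KO samples named the same DDX55 list. No difference between genotypes and no spread between replicates could therefore be measured, and an interval is a place where signal was called in the merged data, not a place known to lose signal in the knockout. The labels do not say in which cells the gene was deleted, nor whether the samples came from separate mice, and they give the DDX55 antibody as one made by the study. The gene Ddx55 itself (gene 67848, chromosome 5, 124552832 to 124569660, GRCm38.p6) held no DDX55, H3K9me3 or R-loop peak and 1 PolII peak. The nearest DDX55 interval was 20937 kb away. The cell type was checked by PolII peaks within 3000 bp of a gene end. These lay at 7 of 9 CD4 naive T cell markers, 1 of 12 B cell, 2 of 16 myeloid, 1 of 12 CD8 T and NK cell and 2 of 10 erythroid markers, where 33.5% of 21887 protein-coding genes had one.

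DDX55 is a DEAD-box RNA helicase, a family of enzymes that use ATP to remodel RNA and RNA-protein complexes, and it is known for work on the large ribosomal subunit. H3K9me3 is the histone mark of constitutive heterochromatin, which covers repeats, satellite DNA and clustered gene families. PolII transcribes protein-coding and many noncoding genes and gathers at active promoters. An R-loop is a DNA-RNA hybrid with a displaced DNA strand, detected here with the S9.6 antibody. Samples with and without RNase H named the same R-loop list. An R-loop peak is therefore a place where signal was called in the merged data, not a place known to lose signal with RNase H. Each interval was placed in a class by the peaks it met by at least 1 bp: H3K9me3 only, PolII only, H3K9me3 with PolII, R-loop (whatever else was met) or none.

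The promoters that DDX55 intervals met show what sequences lay at the few starts they reached. A promoter here is the stretch from 250 bases before to 50 bases after an annotated start, in the RefSeq table for GRCm38.p6. Intervals met 16 such promoters of 15 genes: 9 in the PolII only class, 5 in the H3K9me3 only class and 2 in the class with no listed peak. They belong to 7 of the 33 PolII only intervals, 5 of the 92 H3K9me3 only intervals and 2 of the 40 with no listed peak, and Pole4 counts for 2 overlapping windows, so they do not describe the other intervals. In the sequences below, each 300 bases long and read 5′ to 3′ on the gene's strand, capitals mark the bases inside the DDX55 interval. Creb1 (chr1:64532554-64532853, + strand), Plk2 (chr13:110394794-110395093, + strand), Clcn3 (chr8:60983262-60983561, - strand), Pole4 (chr6:82652825-82653124, - strand, one of its pair of overlapping windows), Hnrnpa1 (chr15:103240147-103240446, + strand) and Ddx60 (chr8:61927837-61928136, + strand) belonged to the PolII only class.
Creb1: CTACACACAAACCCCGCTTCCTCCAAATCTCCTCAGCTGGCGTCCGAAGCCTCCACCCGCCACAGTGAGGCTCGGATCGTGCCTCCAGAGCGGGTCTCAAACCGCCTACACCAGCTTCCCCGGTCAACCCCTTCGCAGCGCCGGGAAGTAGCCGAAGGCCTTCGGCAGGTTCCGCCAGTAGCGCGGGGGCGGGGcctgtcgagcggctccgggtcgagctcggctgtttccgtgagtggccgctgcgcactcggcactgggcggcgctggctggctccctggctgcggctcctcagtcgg
Plk2: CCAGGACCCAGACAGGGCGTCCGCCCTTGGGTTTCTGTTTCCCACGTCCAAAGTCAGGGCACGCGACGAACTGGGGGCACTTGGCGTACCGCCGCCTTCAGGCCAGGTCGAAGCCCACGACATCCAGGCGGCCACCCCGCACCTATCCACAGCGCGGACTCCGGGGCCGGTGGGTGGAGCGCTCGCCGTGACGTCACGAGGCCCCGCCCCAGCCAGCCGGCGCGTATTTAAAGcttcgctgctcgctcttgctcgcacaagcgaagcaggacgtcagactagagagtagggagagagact
Clcn3: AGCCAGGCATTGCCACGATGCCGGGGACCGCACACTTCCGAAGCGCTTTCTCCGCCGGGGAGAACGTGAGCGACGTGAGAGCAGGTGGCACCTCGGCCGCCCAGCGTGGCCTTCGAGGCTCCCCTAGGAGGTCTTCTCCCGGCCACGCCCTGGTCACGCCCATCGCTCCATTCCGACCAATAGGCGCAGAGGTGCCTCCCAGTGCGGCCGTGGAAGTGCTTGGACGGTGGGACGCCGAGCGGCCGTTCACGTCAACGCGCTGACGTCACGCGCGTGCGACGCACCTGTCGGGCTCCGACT
Pole4: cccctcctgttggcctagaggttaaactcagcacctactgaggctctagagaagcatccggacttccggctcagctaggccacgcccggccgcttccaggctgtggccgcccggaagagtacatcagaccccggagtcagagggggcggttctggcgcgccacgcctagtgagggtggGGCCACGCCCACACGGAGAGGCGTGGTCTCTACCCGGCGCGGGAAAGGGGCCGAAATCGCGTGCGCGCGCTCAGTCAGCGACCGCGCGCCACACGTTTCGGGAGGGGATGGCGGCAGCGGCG
Hnrnpa1: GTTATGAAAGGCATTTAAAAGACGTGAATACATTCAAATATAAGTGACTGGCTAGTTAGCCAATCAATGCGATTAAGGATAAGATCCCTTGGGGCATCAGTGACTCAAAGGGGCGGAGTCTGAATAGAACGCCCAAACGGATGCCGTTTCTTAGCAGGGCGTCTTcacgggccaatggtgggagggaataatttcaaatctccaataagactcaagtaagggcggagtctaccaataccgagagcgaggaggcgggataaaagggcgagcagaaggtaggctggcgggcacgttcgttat
Ddx60: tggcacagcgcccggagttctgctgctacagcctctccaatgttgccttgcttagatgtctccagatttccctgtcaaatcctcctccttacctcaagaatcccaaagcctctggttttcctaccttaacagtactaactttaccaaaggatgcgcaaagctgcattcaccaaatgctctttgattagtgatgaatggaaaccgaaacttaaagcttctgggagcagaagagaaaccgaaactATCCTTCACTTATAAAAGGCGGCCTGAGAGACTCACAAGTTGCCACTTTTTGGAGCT
The H3K9me3 only class is shown by the clone-named genes 4931408C20Rik (chr1:26687411-26687710, - strand), A530040E14Rik (chr1:85105843-85106142, + strand) and Gm9758 (chr5:14914840-14915139, - strand), and the class with no listed peak by Mtx3 (chr13:92844518-92844817, + strand).
4931408C20Rik: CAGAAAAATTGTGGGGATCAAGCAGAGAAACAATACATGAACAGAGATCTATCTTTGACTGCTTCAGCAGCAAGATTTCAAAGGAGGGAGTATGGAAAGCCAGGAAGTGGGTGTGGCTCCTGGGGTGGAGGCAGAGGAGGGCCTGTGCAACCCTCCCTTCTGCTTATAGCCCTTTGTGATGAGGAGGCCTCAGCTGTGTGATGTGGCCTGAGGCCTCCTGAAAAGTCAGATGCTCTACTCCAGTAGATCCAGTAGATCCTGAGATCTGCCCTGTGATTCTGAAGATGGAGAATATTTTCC
A530040E14Rik: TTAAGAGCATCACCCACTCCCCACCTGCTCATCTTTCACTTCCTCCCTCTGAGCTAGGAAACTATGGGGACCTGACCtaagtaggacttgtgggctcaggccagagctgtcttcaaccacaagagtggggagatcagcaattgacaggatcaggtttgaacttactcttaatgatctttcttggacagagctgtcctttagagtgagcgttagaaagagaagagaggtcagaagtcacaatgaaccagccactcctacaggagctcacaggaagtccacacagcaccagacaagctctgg
Gm9758: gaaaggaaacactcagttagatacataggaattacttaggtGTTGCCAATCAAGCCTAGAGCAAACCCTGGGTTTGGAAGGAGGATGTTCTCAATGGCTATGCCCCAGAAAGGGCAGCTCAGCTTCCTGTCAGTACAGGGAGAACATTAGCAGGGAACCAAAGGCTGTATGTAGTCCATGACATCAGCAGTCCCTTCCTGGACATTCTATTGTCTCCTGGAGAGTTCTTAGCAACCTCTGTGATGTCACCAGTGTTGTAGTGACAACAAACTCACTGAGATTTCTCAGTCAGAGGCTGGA
Mtx3: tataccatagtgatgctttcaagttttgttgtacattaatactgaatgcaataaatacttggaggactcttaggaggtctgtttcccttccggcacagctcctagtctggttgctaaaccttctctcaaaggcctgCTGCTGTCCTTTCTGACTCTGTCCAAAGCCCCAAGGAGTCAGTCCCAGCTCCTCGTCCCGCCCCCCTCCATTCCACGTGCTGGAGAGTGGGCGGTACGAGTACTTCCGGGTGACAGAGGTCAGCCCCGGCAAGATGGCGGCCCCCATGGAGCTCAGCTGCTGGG

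Most of the PolII only promoters were rich in CpG, and the H3K9me3 only promoters held 2 or fewer. The 9 PolII only promoters had a median GC content of 66.3% and a median of 31 CpG, with ranges of 39.7 to 69.0% and 6 to 38. The 5 H3K9me3 only promoters had 47.0% and 1 CpG, with ranges of 45.3 to 49.7% and 0 to 2. All 32851 promoters of the table had medians of 52.7% and 7. The values of both classes overlapped in GC content (Ddx60 had 46.0% and Gm40369, a clone-named gene, 39.7%) and not in CpG number. Clcn3 had the most CpG, 38, while Ddx60 with 6 and Gm40369 with 7 were no higher than the median of all promoters.

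The motifs searched, on both strands, were the GC box core GGGCGG, the TATA motif TATAAA, the CCAAT motif and the run of guanines GGGG, which can overlap a GC box core by sharing bases. GGGCGG was present in 7 of the 9 PolII only promoters (77.8%), in 0 of the 5 H3K9me3 only promoters and in 35.7% of all promoters. In the overlapping Pole4 windows and in that of Cbx5, which count among the 7, its letters lay only outside the DDX55 interval. For GC content, CpG and motifs alike, promoters that hold a PolII peak without DDX55 were not compared. In the class with no listed peak it was in 1 of 2, that of Mtx3. TATAAA was present in 1 of the 16, that of Ddx60, where the letters lie inside the interval, against 13.6% of all promoters. CCAAT was in 5 of 16 (31.3%) against 37.4%, and GGGG in 14 of 16 (87.5%) against 86.4%. A match describes the letters in the window and is not a binding site.

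H3K9me3 was the most frequent partner. Of the 243 intervals, 92 (37.9%, exact Clopper-Pearson 95% interval 31.7 to 44.3) met H3K9me3 only, 49 (20.2%, 15.3 to 25.8) met H3K9me3 and PolII, 33 (13.6%, 9.54 to 18.5) met PolII only, 29 (11.9%, 8.14 to 16.7) met an R-loop peak and 40 (16.5%, 12.03 to 21.7) met none of the lists. These intervals cover counting error only, and neighbouring DDX55 intervals are not independent. The order of the classes depended on width. With the wider 50% of each partner list, H3K9me3 with PolII was 6.17%, below PolII only at 12.3%, and no listed peak was 28.4%. In the wider 50% of DDX55 intervals, PolII only was 9.02%, H3K9me3 with PolII 30.3%, R-loop 20.5% and no listed peak 3.28%. The R-loop class was mostly a class of triple overlap: 24 of its 29 intervals met H3K9me3 and PolII too, 3 met H3K9me3 too, and 2 met an R-loop peak alone. In all, 168 intervals met H3K9me3, 106 met PolII and 29 met R-loop peaks.

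The H3K9me3 and PolII lists met each other at few places, and most of these places held a DDX55 interval, although they account for 73 of the 243 intervals. In numbers, 106 of 16738 H3K9me3 peaks (0.633%) met a PolII peak, and 68 of these 106 (64.2%, 54.3 to 73.2) met a DDX55 interval. Of the 16632 H3K9me3 peaks with no PolII peak, 80 did (0.481%, 0.382 to 0.598). From the PolII side, 73 of the 115 peaks that met H3K9me3 (63.5%, 54.0 to 72.3) met a DDX55 interval, against 33 of 10809 others (0.305%, 0.210 to 0.428). Where an H3K9me3 peak met both PolII and R-loop peaks, 24 of 27 (88.9%, 70.8 to 97.6) met DDX55. R-loop peaks without H3K9me3 met DDX55 in 2 of 1202 cases (0.166%, 0.0202 to 0.600). These exact intervals cover counting error only, and neighbouring peaks are not independent, so no difference between the shares was tested. The 27 H3K9me3 peaks with PolII and R-loop are among the 106 with PolII. The same count was made for H3K9me3 peaks on chromosomes 1 to 19, X and Y that lay outside the runs described below. Of these peaks, 33 of 64 with PolII met DDX55 (51.6%), against 45 of 16305 without (0.276%).

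**Figure D1:**
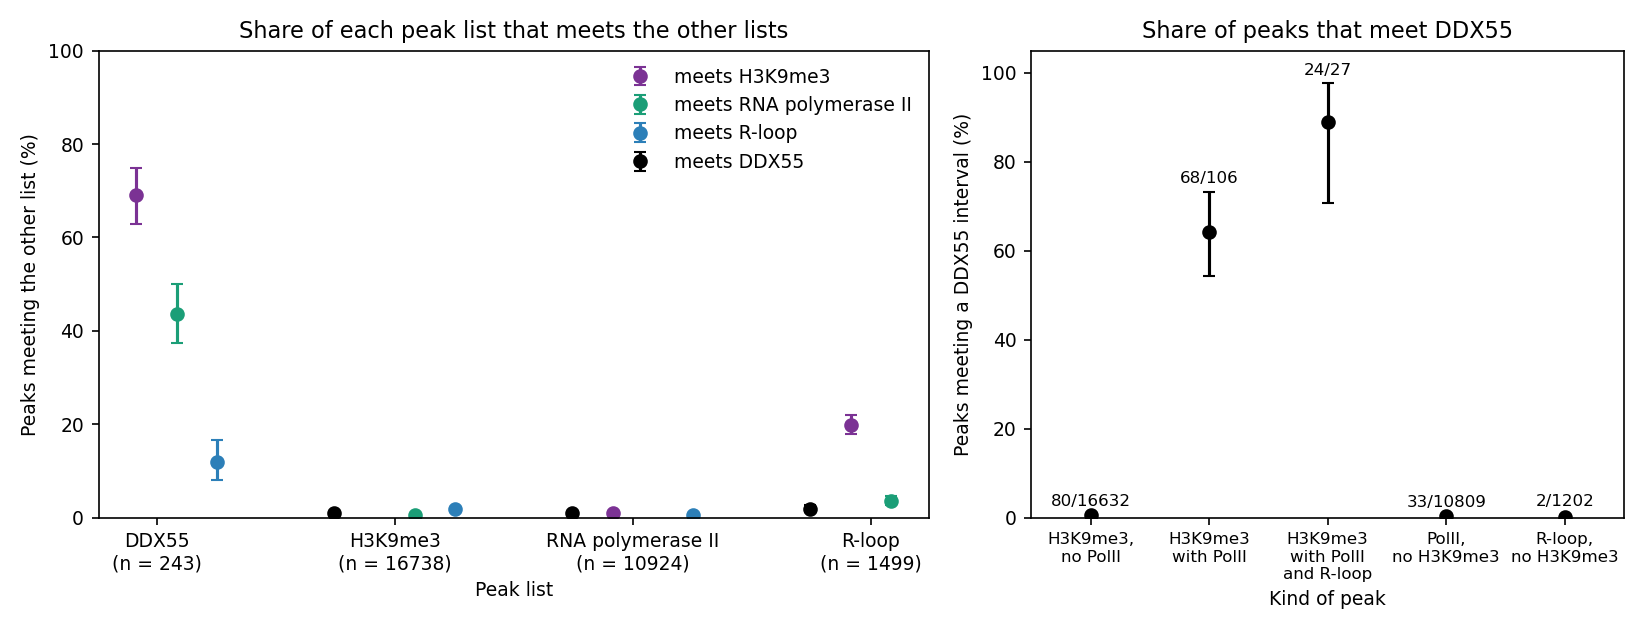
Left, the percent of each peak list that meets each other list by at least 1 bp, with exact 95% intervals; right, the percent of H3K9me3, PolII and R-loop peaks that meet a DDX55 interval, split by what else the peak meets. H3K9me3 peaks with PolII stand at 64.2% and those with PolII and R-loop at 88.9%, against 0.481% for H3K9me3 peaks without PolII.

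DDX55 intervals were narrow, with a median of 438 bp and a range of 170 to 6424 bp, and together covered 142372 bp. The median width was 331 bp in the PolII only class (218 to 1886), 326.5 bp with no listed peak (187 to 583), 435.5 bp with H3K9me3 only (170 to 962), 538 bp with H3K9me3 and PolII (209 to 6424) and 693 bp in the R-loop class (322 to 4557). The classes overlapped widely in width. Of 20 intervals over 1000 bp, 10 were in the R-loop class, 9 met H3K9me3 and PolII, 1 met PolII only and none was in either other class.

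Most overlaps were deep. Of the 168 intervals that met H3K9me3, 115 lay wholly inside the peak, and the 148 H3K9me3 peaks met had a median width of 1543.5 bp against 611 bp for the whole list. PolII peaks met by DDX55 were close to their list in width (664.5 against 638 bp), and 39 of 106 intervals lay wholly inside them. The 27 R-loop peaks met were wide, 1168 against 528 bp. Near the limit of 1 bp, the smallest overlap was 4 bp with an R-loop peak, 97 bp with an H3K9me3 peak and 117 bp with a PolII peak. Among the 40 intervals with no listed peak, the nearest peak was 72 bp away at Gm5373 on chromosome 8 (PolII) and 451 bp at Gm21149 on chromosome 5 (H3K9me3). The other 38 lay at least 1000 bp from any peak, and the median distance over the 40 was 53.6 kb.

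**Figure D2:**
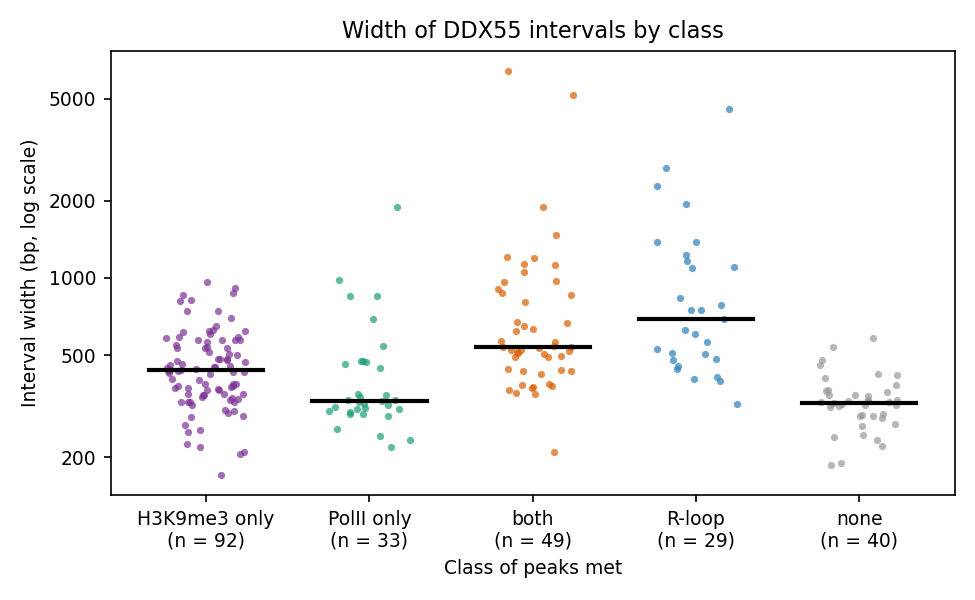
Width of every DDX55 interval in bp (log scale) by class of peaks met, with 1 point per interval and a bar at the median. The widest points are the pair of mitochondrial intervals and the ribosomal DNA interval, and no interval of the H3K9me3 only class or the class with no listed peak reaches 1000 bp.

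PolII only intervals lay close to gene starts, and intervals with H3K9me3 and PolII did not. Of the 215 intervals on chromosomes 1 to 19, X and Y, 50 (23.3%) had a midpoint within 3000 bp of an end of a protein-coding gene. Of the rest, 41 (19.1%) had it in the body of one and 39 (18.1%) in another annotated gene. The midpoint of the other 85 (39.5%) lay in none of these places. By direct overlap, 126 of the 215 met a gene of any kind. In the PolII only class 20 of 31 (64.5%) were at gene ends. An annotated start lay within 1000 bp for 19 of 30 PolII only intervals, 7 of 81 with H3K9me3 only, 0 of 39 with H3K9me3 and PolII, 1 of 24 in the R-loop class and 6 of 38 with no listed peak. The counts leave out intervals on a sequence for which the promoter table used holds no start. PolII peaks differed in this way too. A start lay within 1000 bp of 49.7% of all PolII peaks and of 10 of 97 PolII peaks that met H3K9me3. The PolII only share, 63.3%, is a share of DDX55 intervals and not of PolII peaks. The median distance to a start was 0.420 kb in the PolII only class, 18.7 kb with H3K9me3 and PolII, 20.8 kb with H3K9me3 only, 27.0 kb in the R-loop class and 33.0 kb with no listed peak. Of the 19 PolII only intervals near starts, 12 had their midpoint after the start and 7 before it, from 961 bp before to 606 bp after, and 15 lay wholly inside the PolII peak.

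Even so, few PolII peaks at starts met DDX55. Among PolII peaks without H3K9me3 and within 1000 bp of a start, 19 of 5259 (0.361%, 0.218 to 0.564) met an interval. Farther than 1000 bp from a start, 11 of 5238 PolII peaks without H3K9me3 did (0.210%, 0.105 to 0.375), so a low share was not particular to starts. Among PolII peaks with H3K9me3 and farther than 1000 bp from a start, 58 of 87 did (66.7%, 55.7 to 76.4). PolII peaks that met H3K9me3 lay within 1000 bp of a start in 10 of 97 cases, against 49.7% for the whole PolII list.

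**Figure D3:**
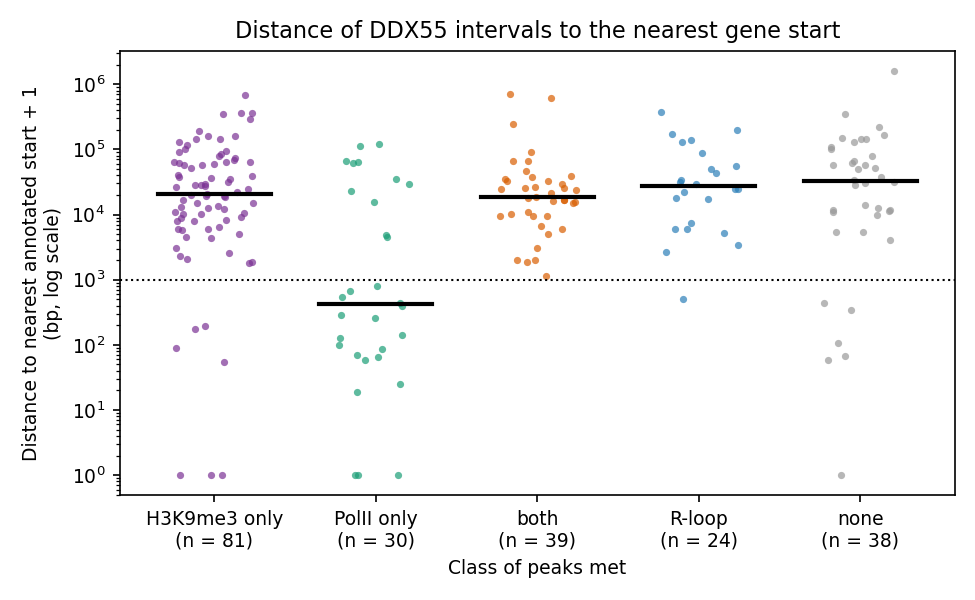
Distance in bp (plus 1, log scale) from each DDX55 interval to the nearest annotated start, by class of peaks met, with 1 point per interval, a bar at the median and a dotted line at 1000 bp. The PolII only class has its median at 0.420 kb, and all intervals that meet H3K9me3 and PolII without an R-loop peak lie at least 1145 bp from a start.

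The PolII only class held the starts of well-known protein-coding genes. At Creb1, which encodes a cAMP-responsive transcription factor, the interval was 475 bp wide and ended 57 bp before the start, inside a 1209 bp PolII peak. At Plk2, a polo-like kinase gene, a 343 bp interval ended 18 bp before the start. At Hnrnpa1, for a splicing-related RNA-binding protein, a 288 bp interval ended 86 bp before the start used for its promoter. The annotated span of Hnrnpa1 begins earlier, at 103239943, so the interval also lay inside the gene. It lay between the promoter starts of the divergent genes Hnrnpa1 and Cbx5, and inside a 1646 bp PolII peak. Cbx5 encodes HP1 alpha, a reader of H3K9me3. The intervals at Clcn3 (542 bp), a chloride-proton exchanger gene, Pole4 (299 bp), a subunit of DNA polymerase epsilon, and Ddx60 (470 bp), an interferon-inducible helicase gene, contained the start itself. These 3 were all the PolII only intervals that did.

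Other PolII only intervals lay inside the gene near its start, among them Nars2 (350 bp, mitochondrial asparaginyl-tRNA synthetase), Tut4 (335 bp, a terminal uridylyltransferase), Atp6v1a (331 bp, a subunit of the vacuolar proton pump), Nmt2 (308 bp, an N-myristoyltransferase), Relch (302 bp), Kctd3 (294 bp) and Cnbp (218 bp, a nucleic acid-binding zinc finger protein). Those at the transcription factor gene Sp4 (444 bp) and at Maoa (351 bp, monoamine oxidase A) lay before the start, by 534 and 786 bp. A smaller set was far from a start. It held Muc6 (978 bp), a mucin gene, Copg2 (690 bp), a COPI coat gene in an imprinted region, Abcb1a (307 bp), a drug efflux pump gene, and an interval 82807 bp from the nearest gene on the X chromosome, Gm371.

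Genes for transfer RNA and 5S ribosomal RNA, which RNA polymerase III transcribes, had intervals of this class too. The 854 bp interval at chromosome 1, 171063911 to 171064764, met the transfer RNA genes n-TEctc5 and n-TGtcc1, the microRNA gene Mir6546 and the Fc receptor gene Fcgr3. Beside it lay intervals of 382 and 565 bp that met H3K9me3 and PolII, with transfer RNA genes 1794 and 706 bp away. These 3 intervals brought 12 of 409 named transfer RNA genes within 3000 bp. On chromosome 8 an 851 bp interval (123600547 to 123601397) lay 173 bp from Rn5s-ps1 in the 5S array. Over all classes and all kinds of small RNA gene, 15 of 215 DDX55 intervals (6.98%, 3.96 to 11.2) had one within 3000 bp, against 4.19% of PolII, 1.42% of H3K9me3 and 1.09% of R-loop peaks. Of the 15, 8 were in the H3K9me3 only class and 3 in the PolII only class, and 7 were the intervals of a single run in Snhg14, described below. Without that run the share was 8 of 208 (3.85%, 1.67 to 7.44), whose exact interval takes in the PolII share.

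Intervals that met both H3K9me3 and PolII lay mostly inside or between genes, away from promoters, and at some of them the peaks of the different lists were alike in width. Of the 73 intervals that met both, R-loop class included, 21 had an H3K9me3 and a PolII peak within 1.5-fold of the interval's own width, and 17 of these 21 lay outside runs. Over the 73, median widths were 565 bp for DDX55, 1610 bp for H3K9me3 and 589 bp for PolII. At Aida, which encodes an axin-interacting protein, the widths were 441 bp for DDX55, 460 bp for H3K9me3 and 409 bp for PolII. At Lars2, for mitochondrial leucyl-tRNA synthetase, they were 438, 466 and 429 bp in that order. At Zc3h7a, a zinc finger gene, they were 491, 411 and 486 bp, and at Eppk1, which encodes epiplakin, 666, 597 and 623 bp. The interval shared by Cmss1 and Filip1l (631, 517 and 639 bp), that of Arhgap21 (371, 351 and 394 bp) and that in the pseudogene Pisd-ps2 (906, 913 and 843 bp) were alike. Apool (542 bp) had a like H3K9me3 peak (522 bp) and a narrower PolII peak (306 bp).

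At some intervals of the R-loop class the same was seen with an R-loop peak added, which could be narrower. Jarid2, which encodes a cofactor of Polycomb repressive complex 2, had a 483 bp DDX55 interval with H3K9me3, PolII and R-loop peaks of 511, 479 and 390 bp. Peak1, a pseudokinase gene, had 409 bp with 455, 393 and 434 bp. The pseudogene Gm10222 on chromosome 1 had 1233 bp with 1011, 1289 and 1168 bp, and an interval on chromosome 2 at 98666545 to 98667377, which met no gene, had 833 bp with 776, 829 and 487 bp. Whether these places draw reads in every library was not tested, as no signal of the IgG or HA samples was analysed here.

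Ribosomal DNA and mitochondrial DNA gave the widest intervals. On chromosome 17 a 4557 bp interval (39844170 to 39848726) covered the ribosomal RNA-related gene Rn18s-rs5. It also met an end of AY036118, a gene of 50274 bp annotated as a long noncoding RNA. An R-loop peak of 5753 bp held all of the interval and an H3K9me3 peak of 5672 bp held 4536 bp of it. A PolII peak of 3967 bp lay there too. A second interval of 510 bp lay 2790 bp from Rn18s-rs5. On the mitochondrial genome 2 intervals, of 6424 and 5191 bp, met 25 of 37 genes, which were both ribosomal RNA genes, 16 of 22 transfer RNA genes and 7 of 13 protein-coding genes. H3K9me3 peaks of 6422 and 5248 bp and PolII peaks of 6435 and 5171 bp lay at the same places, although mitochondrial DNA carries no nucleosomes. Reads of copies of these sequences in the nuclear genome cannot be told apart from them in the lists.

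Further members of the R-loop class were single genes of varied kinds. Cd4, which encodes the coreceptor of these cells, held a 440 bp interval within an 8535 bp R-loop peak, with a 899 bp PolII and a 287 bp H3K9me3 peak. It was the 1 of 29 T cell receptor signalling genes with an interval. Duxf3 and LOC100504180, copies in the double homeobox array of chromosome 10, held intervals of exactly the same width, 1379 bp, whose starts lay 6872 bp apart. The intervals at Ighv8-8, a heavy chain variable segment (454 bp), and Myo3a, a myosin gene (530 bp), met an R-loop peak and nothing else. At Rtl4, a gene derived from a retrotransposon, a 478 bp interval met H3K9me3 (694 bp) and R-loop (458 bp) peaks.

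Of 81 H3K9me3 only intervals on assembled chromosomes, 41 (50.6%) had a midpoint outside genes and over 3000 bp from protein-coding gene ends. Among those with H3K9me3 and PolII the share was 46.2%. Of the 81, 12 met a pseudogene, against 28 of all 215 intervals, such as Cyp2c53-ps (535 bp), Cyp3a58-ps (339 bp) and the vomeronasal pseudogenes Vmn2r-ps16 and Vmn2r-ps17. On chromosome 4, Zfp600 (605 bp), Zfp992 (351 bp) and Zfp978 (468 bp), genes for zinc finger proteins, each held 1. Further genes were Flg2 (619 bp), a filaggrin family gene of skin, Mroh2a (380 bp) and Lrp1b (371 bp), a lipoprotein receptor family gene. Outside genes, the nearest protein-coding genes included Sytl2, 1596 bp from a 499 bp interval, and Speer4e, 1794 bp from a 503 bp interval. The H3K9me3 peaks met by this class had a median width of 1664 bp and a range of 353 to 9631 bp, and 70 of the 92 intervals lay wholly inside them.

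Intervals that met none of the lists lay in and between genes of many kinds. Of the 40, 16 met a protein-coding gene. Ccn2, which encodes a connective tissue growth factor, held 420 bp. Dach2 (361 bp, a nuclear factor), Cadps2 (348 bp, vesicle exocytosis), Fig4 (330 bp, a phosphoinositide phosphatase), Gpsm1 (325 bp, G protein signalling), Dtd1 (320 bp), Zfp704 (318 bp), Tusc3 (294 bp), Foxj3 (288 bp, a forkhead factor) and Zhx3 (187 bp) were others. At Mtx3, an outer mitochondrial membrane gene, a 244 bp interval contained the start, with no PolII peak within 233 kb. At Smim20 a 190 bp interval lay inside the gene. Of 3 intervals in the heavy chain locus Igh, 2 were of this class, at Ighv1-23 (407 bp) and Ighv1-50 (334 bp). Outside genes, the nearest protein-coding genes included Ptger3 (2285 bp away), Rgs18 (10907 bp) and Atp2b1 (14335 bp). On chromosome 6 a pair of intervals, 478 and 536 bp wide, lay 75012 and 29371 bp from Atg7, an autophagy gene.

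The gene lists of T cells and of the processes DDX55 and its partners are known for had at most 1 member each with a DDX55 interval, and lists of this size allow no statement that they were met more or less often than other genes. An interval lay in or within 3000 bp of 227 of 49980 annotated genes (0.454%) and of 92 of 21887 protein-coding genes (0.42%). Among naive T cell identity genes it did so at 0 of 20, R-loop processing 0 of 31, ribosome biogenesis 0 of 30, ribosomal proteins 0 of 101, histones 0 of 79, olfactory receptors 0 of 1428, vomeronasal receptors 0 of 359 and clustered protocadherins 0 of 58. At the background share, these lists would hold few or no such members, apart from the olfactory receptors. That list, with 1428 genes, would hold several, and its 0 was not tested against the background share. One member each had an interval in T cell receptor signalling (Cd4, of 29), CD4 naive T cell markers (Cd4 again, of 9), the H3K9 methylation machinery (Cbx5, of 25), DEAD-box and DEAH-box helicases (Ddx60, of 53) and myeloid markers (Fcgr3, of 16). Imprinted genes had 2 of 33 (Copg2 and Snhg14), zinc finger genes 4 of 399 (1.00%), the testis-expressed Speer genes 5 of 15 and Dux family genes 1 of 4. By gene type, 34 of 430 transfer RNA genes (7.91%, the mitochondrial ones included), 6 of 65 ribosomal RNA genes (9.23%) and 15 of 1340 small nucleolar RNA genes (1.12%) had an interval in the gene or within 3000 bp. By direct overlap the numbers were 18, 2 and 3 in that order. The 2 mitochondrial intervals accounted for 16 of the 18 transfer RNA genes and for both ribosomal RNA genes. In the list of 409 named transfer RNA genes, 12 (2.93%) had an interval in the gene or within 3000 bp, all on chromosome 1.

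By direct overlap 149 genes were met, of which 78 coded for protein and 19 of those had clone names. Genes met by 2 or more intervals numbered 15.

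The intervals were unevenly spread over the chromosomes. Chromosome 8 held 40, or 3.09 per 10 Mb, followed by chromosome 5 with 23, chromosome 1 with 18 and chromosomes 6 and X with 15 each. Chromosome 19 held 1, or 0.163 per 10 Mb, and chromosome 18 held 3, at Sft2d3 (PolII only), Chst9 and Gm30821 (no listed peak). Of the 28 intervals on other sequences, 15 were on the unplaced scaffold JH584304.1, 11 on other scaffolds and 2 on mitochondrial DNA. The classes differed by chromosome. Chromosome 5 had 18 of 23 in the H3K9me3 only class, chromosome 6 had 8 of 15 in the PolII only class, and all 9 on chromosome 11 met H3K9me3.

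**Figure D4:**
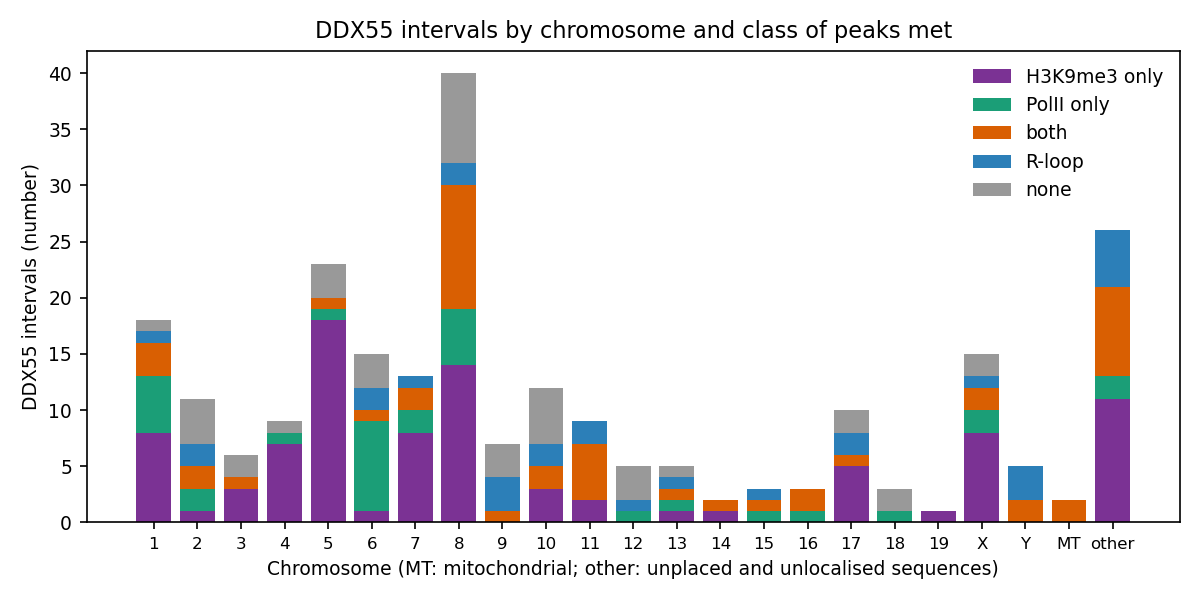
Number of DDX55 intervals on each chromosome, on mitochondrial DNA (MT) and on other sequences, stacked by class of peaks met. Chromosome 8 has 40, chromosome 5 has 23 and chromosome 19 has 1.

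Runs of neighbouring intervals made up much of this. With gaps under 100 kb, 86 intervals (35.4%) fell into 10 runs of at least 4, and 106 intervals had no neighbour within 100 kb. Intervals with H3K9me3 and PolII lay in runs in 26 of 49 cases (53.1%), the R-loop class in 12 of 29 (41.4%), H3K9me3 only in 34 of 92 (37.0%), PolII only in 9 of 33 (27.3%) and no listed peak in 5 of 40 (12.5%). Where copies of a gene are nearly identical, reads may have been placed on another copy than their own, and which copy carries an interval is uncertain in all runs of repeated genes.

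The runs differed in their classes. On chromosome 11, at 3127006 to 3196421, 9 intervals lay over Pisd-ps1 and Sfi1, a centrosomal protein gene that held 8 of them. They were 2 with H3K9me3 only, 5 with H3K9me3 and PolII and 2 of the R-loop class, and 7 of the 8 PolII peaks within the run were met. On chromosome 5 the runs at 14914452 to 15052102 and 15582303 to 15714182, among Speer genes, held 9 and 8 intervals, of which 8 and 7 met H3K9me3 only. On chromosome 7, at 59735850 to 59863050, 7 intervals lay in Snhg14, the imprinted host transcript of the Snord115 and Snord116 small nucleolar RNA clusters, and 5 of these met H3K9me3 only. The run on chromosome 6 at 47652925 to 47778413 was of another kind, with 5 of 6 intervals in the PolII only class and 13 PolII peaks against 1 H3K9me3 peak. It holds the gene Rn4.5s, and its last interval lay 3211 bp from Rny3, a Y RNA gene.

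On chromosome 8 the longest run, 20258951 to 20678893, held 15 intervals among clone-named genes, 7 with H3K9me3 and PolII, 5 with H3K9me3 only, 1 with PolII only and 2 with no listed peak. A run of 8 lay before it, at 19909817 to 20150675. The scaffold JH584304.1 held its 15 intervals within 66761 bp, with a total of 17879 bp covered, and 12 of the 15 met PolII. The end of the Y chromosome (90739297 to 90805204) had 5 intervals, 2 of them in Mid1-ps1 and 2 in Gm33272. All 5 met H3K9me3 and PolII, and 3 met an R-loop peak as well. The run of 4 on chromosome 10 (3109881 to 3116809) lay within a single 7372 bp H3K9me3 peak, and 2 of the 4 also met PolII.

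**Figure D5:**
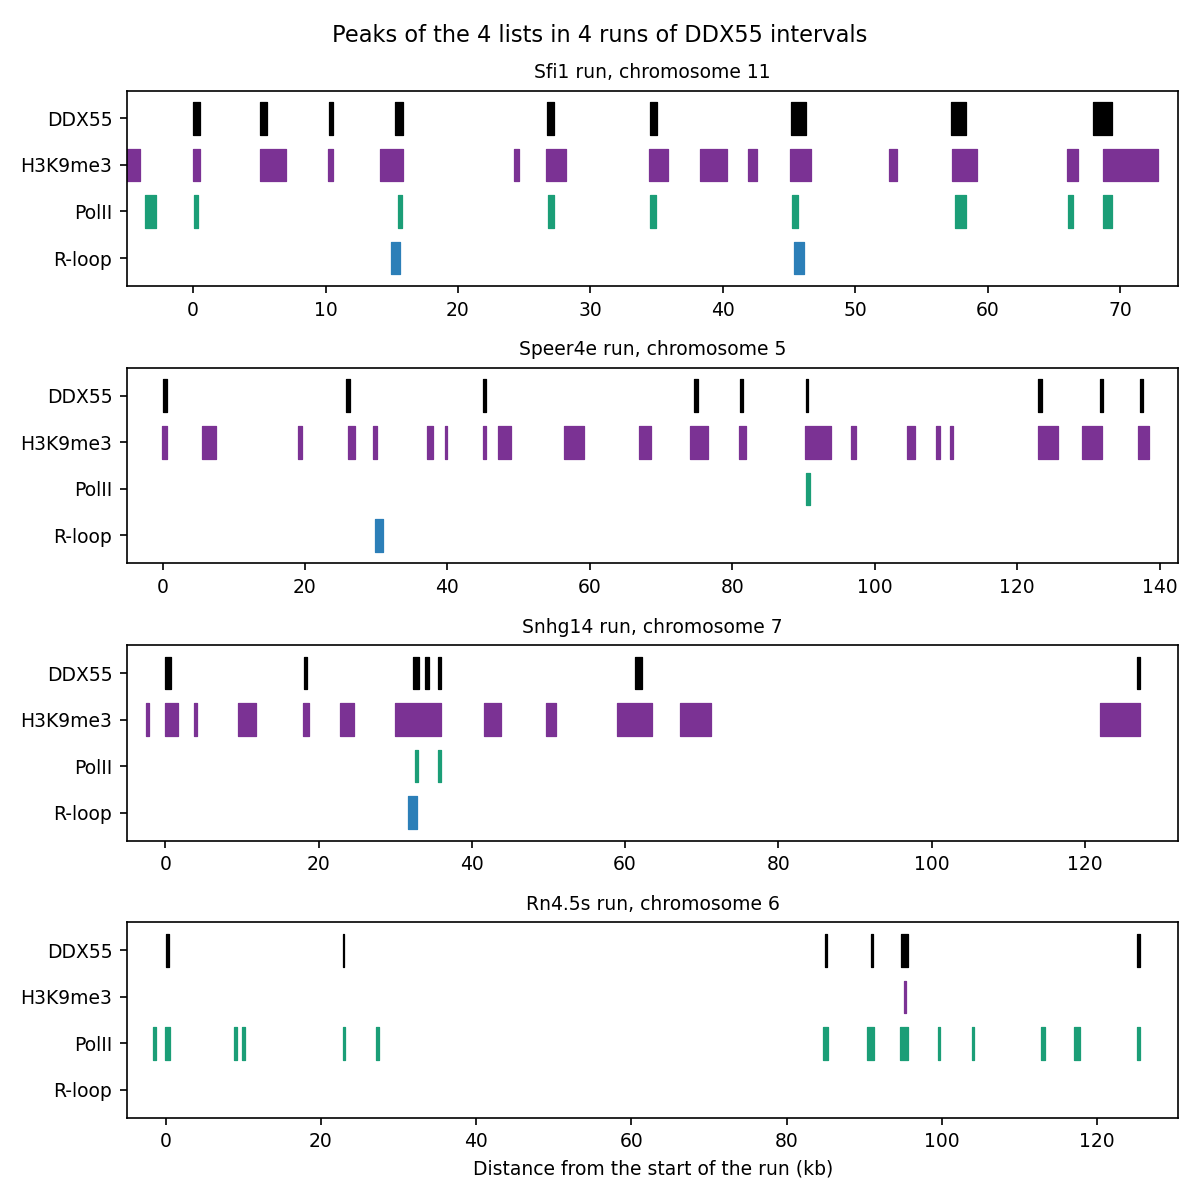
Positions of DDX55, H3K9me3, PolII and R-loop peaks in 4 runs of DDX55 intervals, as distance in kb from the start of the run, with 1 row per list and 1 block per peak. In the Sfi1 run DDX55, H3K9me3 and PolII blocks line up, in the Speer run H3K9me3 blocks accompany DDX55, and in the Rn4.5s run PolII blocks do, with 1 H3K9me3 peak.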

How the data were processed

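CUT&Tag data from CD4+ naive T cells were used as 4 merged peak lists, 1 per target. Their values are genomic coordinates in bp, another unit than counts or signal, as the authors deposited them, with no score. The submitters' processing notes name the build mm10, the peak caller MACS3 3.0.0b1, the aligner Bowtie2 2.5.0, and also ChIPseeker 1.30.3, SAMtools 1.15.1 and the read trimmer fastp 0.12.4. Peak thresholds, the way samples were merged and any filter against controls are not given in the sources used here. Depth per sample is therefore unknown, and wider or fewer calls would change every overlap share.

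Overlap was at least 1 bp, and starts were made 1-based, in Python 3.11.15 (pandas 2.3.3, numpy 2.4.6). On simulated lists built to hold the classes, 243 of 243 planted classes were recovered, which checks the overlap code only. The simulated R-loop intervals met R-loop and H3K9me3 peaks and no PolII peak, so triple overlap was not simulated. Exact 95% intervals of shares (Clopper-Pearson) were computed with scipy 1.17.1, and no test was run, since intervals are not replicates. Genes, promoters and sequences came from RefSeq tables of GRCm38.p6, whose coordinates equal those of mm10. The gene table gives no exons, so exonic or intronic position is not stated, and the 32851 promoters belong to 27025 genes. The named-genes rule took Ddx55, per class up to 15 genes met (widest intervals first, clone names last) and up to 8 nearest protein-coding genes of intergenic intervals, up to 6 members met per gene list, and the genes of runs. Other genes were picked once their values were known. The members and the 25 gene lists were chosen with earlier results of these data known. Alternatives were other overlap rules and windows, wider peaks, assembled chromosomes only and joined intervals.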

Additional observations from a re-analysis of the deposited data

How the results depend on the processing

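Of 66 values under the alternatives, 55 stayed within their counting interval, their quartiles or 1.5 times their count, and 11 moved. With the wider 50% of each partner list the share of intervals with H3K9me3 and PolII was 6.17% and with no listed peak 28.4%. In the wider 50% of DDX55 intervals the share with PolII only was 9.02%, with H3K9me3 and PolII 30.3%, with R-loop 20.5% and with no listed peak 3.28%. Without the runs of 4 or more, an alternative chosen after seeing the data, the share with H3K9me3 and PolII was 14.6% and with no listed peak 22.3%. With intervals joined within 10 kb, chromosome 5 held 14. With a 1000 bp window, 14.4% lay at gene ends and 25.1% in protein-coding gene bodies. The causes were not tested.

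No paired analysis was possible because the lists merge the samples and hold no value per sample, and leaving out a replicate was not possible either. The lists have no heights, so no interval can be called strong or weak. Intervals in near-identical copies depend on how reads were assigned, which is not given in the sources used here.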

Other observations

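Some DDX55 intervals lay near the first assembled bases of a chromosome, which was looked at after the values were seen. Of 215 intervals on chromosomes 1 to 19, X and Y, 18 (8.37%) lay in the first 3.5 Mb, on 6 chromosomes, against 1.51% of H3K9me3, 0.541% of PolII and 2.10% of R-loop peaks. Of the 18, 9 were the Sfi1 run on chromosome 11 and 4 the run on chromosome 10. Without the runs of 4 or more, 5 of 144 (3.47%, exact 95% interval 1.14 to 7.92) remained, on 4 chromosomes, and this interval takes in the H3K9me3 and R-loop shares. Those on chromosome 9 at 3000402 and 3024060 were 560 and 625 bp wide and lay inside H3K9me3 peaks of 4748 and 13766 bp and R-loop peaks of 4734 and 13682 bp. The nearest gene to both was Mir101c. The interval in Pisd-ps2 on chromosome 17 was in this zone too.

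The far end of the X chromosome held intervals as well, of 575 bp near Mid1 (3245 bp away), 522 bp near Erdr1 (5017 bp away) and 813 bp near Asmt (57538 bp away). The first and last met H3K9me3 only, and the interval near Erdr1 met H3K9me3 and PolII. These genes lie at or near the region that X and Y share, where the Y chromosome had its run of 5.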
